A study of Homo sapiens with 8 samples.

Results

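The RAS, RAF, MEK and ERK kinase cascade was followed here through 7 genes chosen by symbol, namely HRAS, NRAS, BRAF, MAP2K1, MAP2K2, MAPK3 and RASA1, out of 20263 genes in the deposited table. All 7 members were found under a single human Ensembl identifier each, and all 7 passed the filter on low values. The cells were PANC-1, an established line from a human carcinoma of the pancreatic duct. They received 10 μM eupalinolide B (EB), a sesquiterpene lactone from Eupatorium lindleyanum, or the vehicle DMSO, for 24 h, with 4 libraries per group and no genetic change in either group. A single cell line, dose and time were measured, so the values hold for these conditions.

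RAS proteins are small GTPases at the inner face of the plasma membrane. Loaded with GTP by exchange factors of the SOS family, they recruit RAF kinases, which phosphorylate the MEK kinases, which in turn phosphorylate the ERK kinases. GTPase-activating proteins such as the product of RASA1 return RAS to its inactive, GDP-bound form. The cascade is known as a main growth signal of pancreatic duct carcinoma. mRNA levels do not report on GTP loading or phosphorylation, through which most of its regulation runs.

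Each value is given in TPM, a share of the library's transcripts after correction for gene length, which allows levels to be compared between genes. The duct markers were split. KRT8 was at 514 to 1897 TPM and KRT18 and KRT19 at 135 TPM or more in every library. However, 2 of the 6 duct markers, KRT7 and EPCAM, stayed at 0.387 TPM or below. The label of the line was not tested with these values. The summed TPM of the 6 duct markers was 1129 to 1594 with DMSO and 3262 to 3652 with EB. KRT8, KRT18 and KRT19 were higher in every EB library than in any DMSO library, whereas SOX9 went the other way, from 149 ± 19.3 TPM (SD, n = 4) with DMSO to 57.1 ± 11.9 (SD, n = 4) with EB. The part of these markers in the results below was not tested. Of the markers of other cells, PTPRC, CD3E, PECAM1, DCN, LUM, INS, GCG and SST were listed at 0 in all 8 libraries. Others of the same lists were above 0. COL1A2 was at 37.7 to 90.0 TPM, COL1A1 at 0.806 to 2.17 TPM and CD14 at 0.299 to 1.37 TPM. CDH5 was at 0.214 to 0.305 TPM with DMSO and at or below 0.0174 TPM with EB. DMSO replicate 4 stood apart, since the 13 mitochondrially encoded genes took 39.0% of its TPM against 17.0% to 21.1% in the other DMSO libraries and 11.6% to 20.3% with EB. A larger mitochondrial share lowers the TPM of every other gene in that library, so values without it are given for HRAS, MAP2K1 and MAP2K2, for each pathway list and for ARAF and SPRY2, in which it was far below the other DMSO libraries. In RNA from whole cultures, fewer cells of a kind and less RNA per cell cannot be told apart.

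Promoter stretches are shown for the 4 members whose stretch holds no exon of the same gene, whatever their fold change. Each is the 150 bases before the RefSeq start site on GRCh38.p14, read 5′ to 3′ on the gene's strand. The RefSeq start lies 1745 bases from the start of the GENCODE gene for HRAS and 661 for BRAF, and coincides with it for NRAS and MAP2K2. Capitals mark GC boxes (GGGCGG or CCGCCC, the letters bound by SP1 family factors) and CCAAT boxes (CCAAT or ATTGG), searched on both strands. The motifs do not overlap each other in these stretches. RefSeq had an entry for all 7 members. The stretches of the other 3 (MAP2K1, MAPK3 and RASA1) contain exons of their gene and are not shown.
NRAS (chr1:114716772-114716921, minus strand): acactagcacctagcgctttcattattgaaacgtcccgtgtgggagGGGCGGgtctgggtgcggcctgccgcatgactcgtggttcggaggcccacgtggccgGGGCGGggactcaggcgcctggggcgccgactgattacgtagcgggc
BRAF (chr7:140924269-140924418, minus strand): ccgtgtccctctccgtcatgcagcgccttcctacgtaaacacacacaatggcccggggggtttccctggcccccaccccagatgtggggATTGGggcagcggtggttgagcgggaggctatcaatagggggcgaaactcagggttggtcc
HRAS (chr11:535577-535726, minus strand): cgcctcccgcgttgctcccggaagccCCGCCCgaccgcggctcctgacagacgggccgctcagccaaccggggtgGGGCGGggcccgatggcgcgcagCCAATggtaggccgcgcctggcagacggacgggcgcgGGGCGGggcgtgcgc
MAP2K2 (chr19:4124123-4124272, minus strand): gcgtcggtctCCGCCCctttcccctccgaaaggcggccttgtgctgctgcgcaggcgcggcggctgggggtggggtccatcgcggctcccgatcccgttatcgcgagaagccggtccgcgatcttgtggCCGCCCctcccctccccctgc
The NRAS stretch held 2 GC boxes, HRAS 3, MAP2K2 2 and BRAF 0, and a GC box was present in 36.8% of 35116 promoter stretches of that length. A CCAAT box was found in the HRAS and BRAF stretches and in 23.5% of all stretches. These matches describe the letters only, and their part in the fold changes was not tested.

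With DMSO, MAP2K2 had the highest level of the members, followed by MAPK3, HRAS, NRAS, RASA1, BRAF and MAP2K1. Neighbours in this order did not overlap between libraries except NRAS with RASA1 and RASA1 with BRAF. With EB the order was MAP2K2, HRAS, MAPK3, NRAS, MAP2K1, BRAF and RASA1, so RASA1 took the last place, and HRAS with MAPK3, NRAS with MAP2K1 and MAP2K1 with BRAF overlapped. The plot of TPM by library shows these levels.

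**Figure D1:**
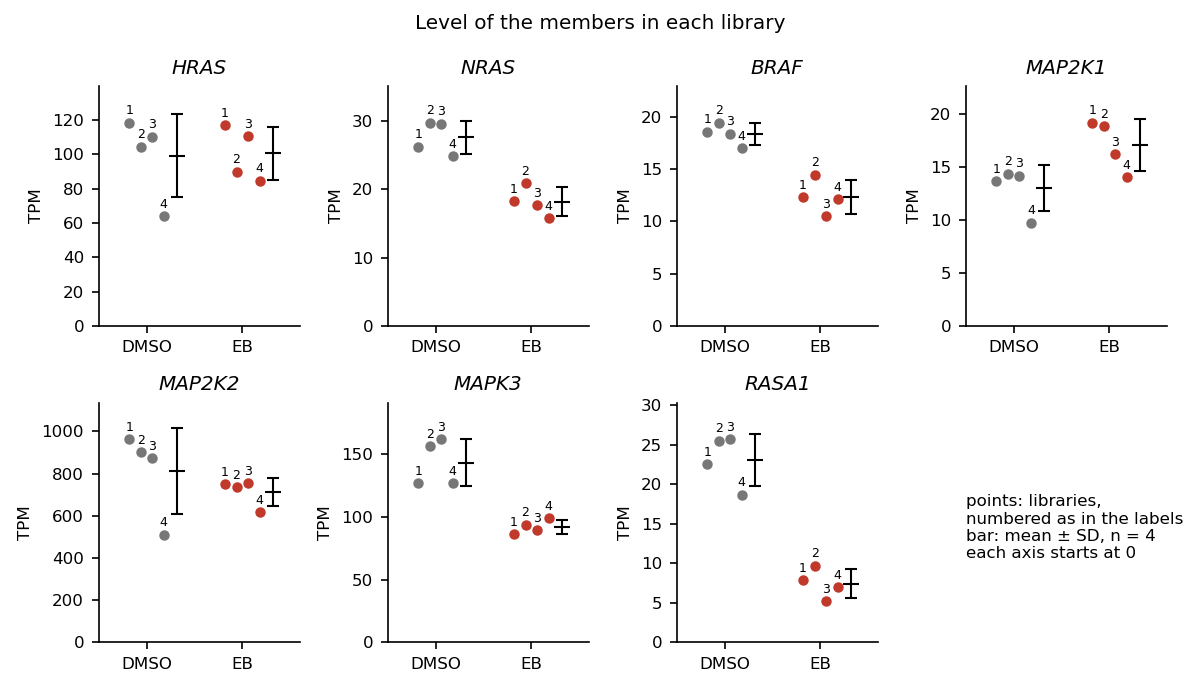
TPM of each member in the 4 DMSO and 4 EB libraries, numbered as in the labels, with the mean ± SD beside them and every axis starting at 0. The EB libraries of NRAS, BRAF, MAPK3 and RASA1 lie below all DMSO libraries, while those of HRAS, MAP2K1 and MAP2K2 overlap with them.

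The comparison of EB with DMSO asked which steps of the cascade changed at the mRNA level. Of the 7 members, 4 were lower with EB (NRAS, BRAF, MAPK3 and RASA1) and 0 were higher at a limma adjusted p under 0.05, while HRAS, MAP2K1 and MAP2K2 were not called. The count higher at an unadjusted limma p under 0.05 was 1, MAP2K1. Of all 11725 genes tested, 40.3% were called, 25.1% lower and 15.2% higher, so 4 of 7 stands beside a high background. The median log2 fold change of the members was −0.54, against −0.11 for all genes tested. The EB libraries lay below all DMSO libraries in the same 4 members and overlapped with them in the other 3. Among all tested genes the groups did not overlap in 36.8%, with EB below in 20.3% and above in 16.6%.

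RASA1, which encodes a GTPase-activating protein that switches RAS off, had the largest change of the members. The gene (ENSG00000145715) spans 87267883 to 87391931 of chromosome 5 (hg38, plus strand). RASA1 had 22.5, 25.5, 25.7 and 18.7 TPM in DMSO replicates 1 to 4 and 7.84, 9.72, 5.22 and 6.97 TPM in EB replicates 1 to 4. The highest EB library was thus well below the lowest DMSO library. The mean dropped by 67.8%, from 23.1 ± 3.29 TPM (SD, n = 4) to 7.44 ± 1.87 (SD, n = 4). On the log2 scale RASA1 changed by −1.53 (limma adjusted p = 0.000364, standard error 0.18), a value below that of all but 1.46% of the genes tested. RASA1 was the only member past the study's thresholds (log2 fold change beyond 1.5 in size, with p under 0.05 before adjustment), which 1.54% of all genes passed downward and 0.537% upward. Its exons overlap those of CCNH on the opposite strand, and whether reads were counted by strand is not given in the sources used here.

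Between the RAS genes, NRAS fell and HRAS was not called. NRAS (ENSG00000213281, chromosome 1, 114704469 to 114716771, minus strand) had 26.3, 29.8, 29.6 and 24.8 TPM with DMSO and 18.3, 20.9, 17.7 and 15.8 TPM with EB. No EB library reached a DMSO library, and the log2 fold change was −0.58 (limma adjusted p = 0.00669, standard error 0.13). The fall of NRAS was smaller, at −0.30, once the dependence of each library on transcript length and GC content was removed (limma adjusted p = 0.0098). HRAS (ENSG00000174775, chromosome 11, 532242 to 537321, minus strand) had 118.5, 104.3, 110.3 and 64.0 TPM with DMSO and 116.8, 89.9, 110.6 and 84.6 TPM with EB. The groups overlapped, with DMSO replicate 4 lowest of all. Exons of HRAS overlap those of a long noncoding RNA on the opposite strand. The log2 fold change of HRAS was 0.042 with a 95% interval from −0.42 to 0.50 (limma adjusted p = 0.885), and a change within this interval could not be told from none. Its sign turned without DMSO replicate 4 (−0.15), EB replicate 1 (−0.034) or EB replicate 3 (−0.0077), with the mitochondrial genes removed (−0.14) and with quantile normalization (−0.072).

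BRAF, the RAF kinase among the members, fell. BRAF (ENSG00000157764, chromosome 7, 140719327 to 140924929, minus strand) overlaps exons of NDUFB2 and of a long noncoding RNA on the other strand. An unprocessed pseudogene, BRAFP1, could share reads of BRAF. BRAF had 18.6, 19.5, 18.4 and 17.0 TPM with DMSO and 12.3, 14.5, 10.5 and 12.1 TPM with EB. The groups did not overlap, and the log2 fold change was −0.54 (limma adjusted p = 0.0085, standard error 0.13). This call was lost when that dependence was removed (log2 fold change −0.085, limma adjusted p = 0.458).

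The MEK kinases, the step between RAF and ERK, did not pass the test and had opposite signs. MAP2K1, encoding MEK1 (ENSG00000169032, chromosome 15, 66386837 to 66491656, plus strand), had 13.7, 14.4, 14.2 and 9.75 TPM with DMSO and 19.2, 18.9, 16.2 and 14.0 TPM with EB. Only EB replicate 4 fell within the range of the DMSO libraries. The log2 fold change was 0.37 (95% interval 0.018 to 0.73, limma adjusted p = 0.0864), and MAP2K1 was called higher after median-ratio scaling (0.48, limma adjusted p = 0.00191) and quantile normalization (0.56, limma adjusted p = 0.000744). Without DMSO replicate 4 the value for MAP2K1 was 0.25 (limma adjusted p = 0.118) and without the mitochondrial genes 0.20 (limma adjusted p = 0.137), neither of them called. MAP2K2, encoding MEK2 (ENSG00000126934, chromosome 19, 4090321 to 4124122, minus strand), had 963.5, 903.1, 874.0 and 510.7 TPM with DMSO and 750.1, 735.7, 753.6 and 616.1 TPM with EB. The EB libraries lay below DMSO replicates 1 to 3 and above DMSO replicate 4. The log2 fold change was −0.15 (95% interval −0.60 to 0.30, limma adjusted p = 0.577), and without DMSO replicate 4 it was −0.36 and called lower (limma adjusted p = 0.0226). The exons of MAP2K1 overlap those of SNAPC5 and of a long noncoding RNA on the opposite strand. A processed pseudogene, MAP2K1P1, could share reads of MAP2K1.

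MAPK3, encoding ERK1, the last kinase of the cascade, fell. MAPK3 (ENSG00000102882, chromosome 16, 30114105 to 30123506, minus strand) had 126.6, 156.3, 161.7 and 126.9 TPM with DMSO and 86.1, 93.8, 89.4 and 98.7 TPM with EB. The EB values were close together and all below the DMSO values, at a log2 fold change of −0.62 (limma adjusted p = 0.00505, standard error 0.13). The exact two-sided permutation test over the 70 assignments of libraries gave p = 0.0286 for NRAS, BRAF, MAPK3 and RASA1, the smallest it can give. It gave exact p = 0.829 for HRAS, 0.0857 for MAP2K1 and 0.571 for MAP2K2.

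**Figure D2:**
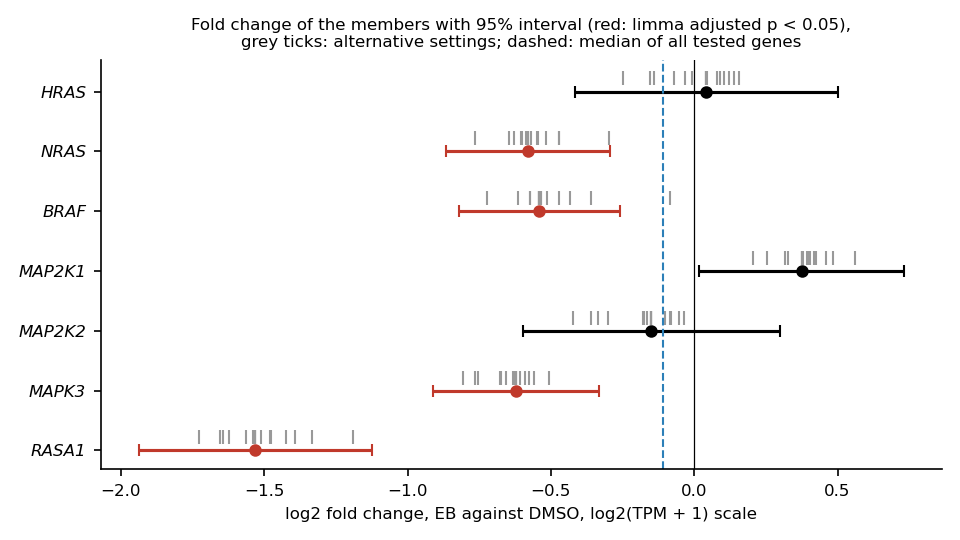
Log2 fold change of EB against DMSO for each member, with the 95% interval of limma, grey ticks for the value under each alternative setting and a dashed line at the median of all tested genes (−0.11). RASA1 lies at −1.53, MAPK3, NRAS and BRAF between −0.62 and −0.54, and the intervals of HRAS and MAP2K2 include 0.

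Ratios of TPM of related genes within a library do not depend on the scaling between libraries, and 3 are given here of 5 compared, with p-values adjusted over the 5. The tested log2 differences had 1 TPM added to each gene, so they keep some dependence on scaling and differ from those of the plain ratios for low genes. MAP2K2 transcripts outnumbered MAP2K1 transcripts in every library, with a ratio of TPM of 70.5, 62.8, 61.7 and 52.4 with DMSO and 39.1, 39.0, 46.4 and 43.9 with EB. All EB ratios were below all DMSO ratios, and the log2 ratio differed by −0.52 (standard error 0.11, exact permutation test, p = 0.0286, adjusted p = 0.0714 over the 5 ratios). The ratio of RASA1 to NF1, which encodes the GTPase-activating protein neurofibromin, was 1.89, 2.02, 1.94 and 2.17 with DMSO and 1.85, 1.68, 1.58 and 1.68 with EB. These groups did not overlap either, though they lay close. The log2 difference was −0.30 with 1 TPM added (standard error 0.058, exact permutation test, p = 0.0286, adjusted p = 0.0714) and −0.25 with 0.1 TPM added.

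The ratio of HRAS to NRAS was 3.58 ± 0.796 (SD, n = 4) with DMSO and 5.58 ± 0.964 (SD, n = 4) with EB, and 1 EB library overlapped the DMSO range (log2 difference 0.62, exact permutation test, p = 0.0571, adjusted p = 0.0952). After removal of the dependence on transcript length and GC content the difference was 0.050 (exact permutation test, p = 0.657, adjusted p = 0.771). None of these 3 ratios passed an adjusted p of 0.05 in this exact test, while 2, MAP2K2 to MAP2K1 and RASA1 to NF1, had an unadjusted p under 0.05.

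**Figure D3:**
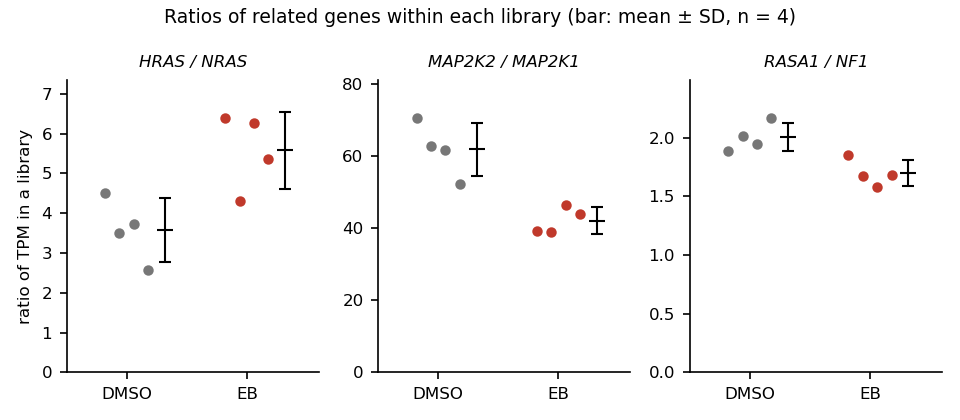
Ratio of TPM of related genes in each of the 4 DMSO and 4 EB libraries, with the mean ± SD beside them and axes starting at 0. MAP2K2 to MAP2K1 is at 52.4 or more in the DMSO libraries and at 46.4 or less in the EB libraries, and RASA1 to NF1 is also apart, while HRAS to NRAS overlaps between the groups.

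The surrounding pathway was described with 82 genes in 8 lists, of which 66 were tested, and the other 16 stayed at or below 1.71 TPM in every library. With EB, limma called 24 of these genes lower and 8 higher, that is 36.4% and 12.1% of those tested, beside 25.1% and 15.2% of all genes. The median log2 fold change was −0.31, against −0.11 for all genes. The count of lower genes moved with single libraries. It was 10 without DMSO replicate 2, DMSO replicate 3 or EB replicate 4, and 12 without DMSO replicate 1. It was 14 and 15 without EB replicates 3 and 1, and 31 without DMSO replicate 4. Over the whole table, 4218 of 11589 genes were lower without DMSO replicate 4. The whole-table count was 1964 of 11571 without DMSO replicate 2 and 1950 of 11562 without DMSO replicate 3. Without EB replicate 4 it was 2258 of 11663. In these last settings the larger share of lower pathway genes seen with all libraries did not hold. The count of higher genes was 4 without EB replicate 3 or EB replicate 4, and 5 without DMSO replicate 3, EB replicate 1 or EB replicate 2. The filter asks for 1 TPM in 4 libraries. GAB1, low with EB, was not tested when a DMSO library was left out, nor RPS6KA2, low with DMSO, when an EB library was. With all libraries both passed the filter only through the group where they were high, and both count among the 24 and 8 calls.

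Some genes that load RAS with GTP and some that stimulate its hydrolysis were lower, and others were not called. Of 4 tested GTPase-activating protein genes other than RASA1, 2 were lower and 0 were higher (limma, also 0 higher at an unadjusted p under 0.05). The lower share was 50.0%, beside 25.1% of all genes, and the median log2 fold change was −0.80. DAB2IP had a log2 fold change of −1.36 (40.4 ± 11.6 TPM with DMSO and 14.7 ± 2.53 with EB, SD, n = 4, limma adjusted p = 0.00194). NF1 had 11.9, 12.7, 13.2 and 8.62 TPM with DMSO and 4.24, 5.80, 3.30 and 4.14 TPM with EB, groups that did not overlap (log2 fold change −1.23, limma adjusted p = 0.000887). RASA2 and RASA3 were not called, at −0.085 and −0.37. Without DMSO replicate 4 the list had 3 lower genes. Of 3 tested exchange factor genes, 2 were lower (66.7%, beside 25.1% of all genes), also without DMSO replicate 4, and RASGRP2 was not called (−0.19). SOS1 went from 14.7 ± 1.12 to 5.08 ± 1.19 TPM (SD, n = 4, log2 fold change −1.39, limma adjusted p = 0.000291) and SOS2 had a log2 fold change of −0.82, which was −0.42 and not called after removal of the length and GC dependence.

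The adaptors that link receptors to SOS gave 5 lower (45.5%, beside 25.1% of all genes) and 6 uncalled genes among 11 tested. The largest falls were those of GAB1 (log2 fold change −1.10) and SHC2 (−1.03). GAB1 passed the filter only through the DMSO libraries (1.87 to 2.97 TPM, against 0.551 to 0.748 with EB). Its call thus rests on that filter, and no support is drawn from it. The count of lower adaptors was 1 without DMSO replicate 1, 2 or 3, 2 without EB replicate 4, 3 without EB replicate 1 or 3, and 6 without DMSO replicate 4. GRB2, which carries SOS to receptors, was at −0.24 with libraries that overlapped widely (limma adjusted p = 0.674). Among 17 tested scaffolds and RAF regulators, 6 (35.3%) were lower and 4 (23.5%) higher, beside 25.1% and 15.2% of all genes. Without DMSO replicate 4 these were 7 and 4. The lower count was 3 without DMSO replicate 1, 2 or 3 or EB replicate 3 or 4, and the higher count was 2 without any one library other than DMSO replicates 1 and 4. KSR1, a scaffold that holds RAF, MEK and ERK together, had a log2 fold change of −1.79 (16.5 ± 2.79 TPM with DMSO and 4.59 ± 2.95 with EB, SD, n = 4, limma adjusted p = 0.00307), and IQGAP1, another scaffold, one of −1.06. SFN, a 14-3-3 protein also known as a p53 target, rose by 1.51 on the log2 scale (limma adjusted p = 0.000121), and LAMTOR3, a scaffold of MEK1 on late endosomes, by 0.71, a call lost without EB replicate 3 or 4 and without the mitochondrial genes.

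Of the 4 RAS and RAF relatives, ARAF was lower (log2 fold change −0.51, limma adjusted p = 0.0107) and RRAS higher (0.44, limma adjusted p = 0.0249), and the other 2 were not called. Without DMSO replicate 4, ARAF was at −0.59 and RRAS at 0.35, both still called. RRAS was not called without DMSO replicate 3, EB replicate 3 or EB replicate 4, nor after removal of the mitochondrial genes (0.25) or of the length and GC dependence (0.13). Among 11 genes of RAS processing and turnover, 4 (36.4%) were lower and 1 (9.1%) higher, beside 25.1% and 15.2% of all genes. Without DMSO replicate 4 the counts were 4 and 2. GOLGA7, a subunit of a RAS palmitoyltransferase, was at −0.60, FNTB, the beta subunit of the farnesyltransferase, at −0.56, and RCE1, the protease that trims farnesylated RAS, at 0.72. The lower count was 0 without DMSO replicate 2, DMSO replicate 3, EB replicate 1 or EB replicate 4, 1 without EB replicate 3 and 2 without DMSO replicate 1. FNTB lost its call under 13 of 17 alternatives and GOLGA7 under 5. The kinases that ERK activates gave 1 lower gene, MKNK1 (−0.42), and 1 higher gene, RPS6KA2 (0.65), among 6 tested. Each is 16.7% of the list, beside 25.1% lower and 15.2% higher of all genes. RPS6KA2 passed the filter only through the EB libraries (1.40 to 1.94 TPM, against 0.424 to 0.945 with DMSO). Its call thus rests on that filter, and no support is drawn from it. MKNK1 lost its call without any one library other than DMSO replicate 4, without which this list had 2 lower genes and 1 higher gene. Of 10 tested feedback inhibitors, SPRY1 (−1.24), SPRY2 (−0.59) and SPRY4 (−0.47) were lower, and DUSP5, a nuclear phosphatase of ERK, was higher at 2.08. The shares, 30.0% lower and 10.0% higher, stand beside 25.1% and 15.2% of all genes. Without DMSO replicate 4 the list had 6 lower genes and 1 higher gene, with SPRY2 at −0.73. The lower count was 0 without EB replicate 4, 1 without DMSO replicate 1, 2 or 3, and 2 without EB replicate 1 or 3. SPRY1 lost its call without EB replicate 4, and SPRY2 without EB replicate 4 or DMSO replicate 1, 2 or 3. SPRY4 falls outside the rule for named genes and was named after its value was seen.

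**Figure D4:**
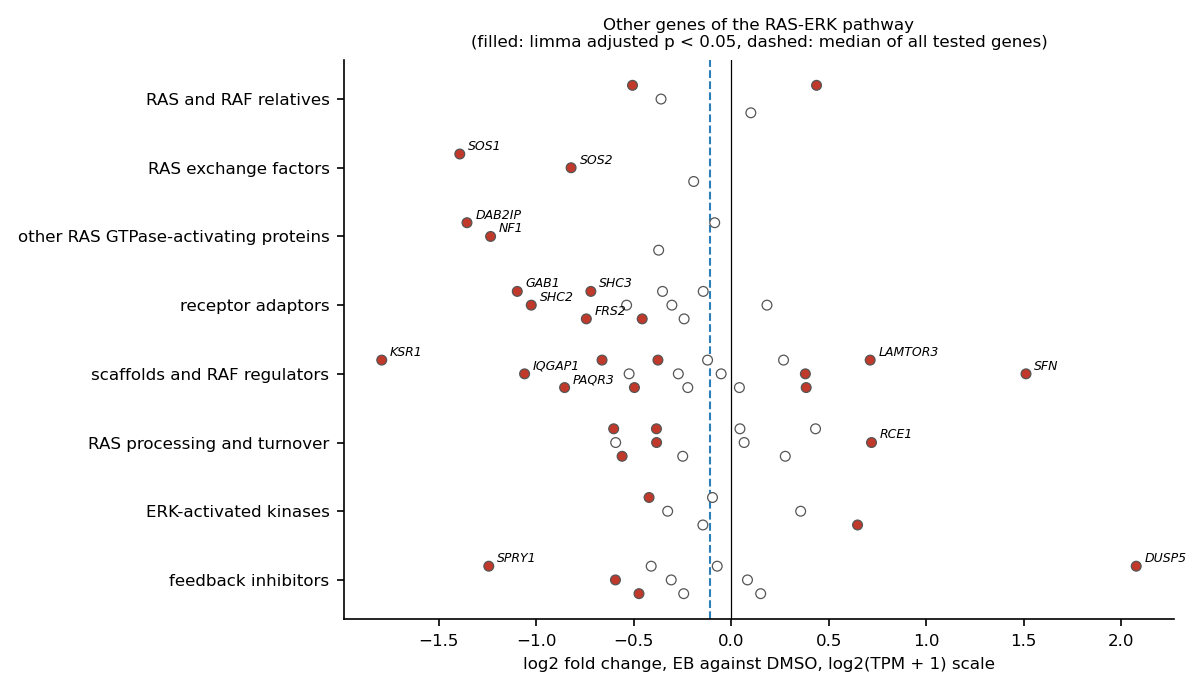
Log2 fold change of EB against DMSO for the 66 tested genes of the 8 pathway lists, 1 point per gene, filled where the limma adjusted p is under 0.05, with a dashed line at the median of all tested genes (−0.11). The called genes among exchange factors, GTPase-activating proteins and adaptors are all to the left of 0, and DUSP5 (2.08) and SFN (1.51) lie farthest to the right.

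Across 11685 nuclear genes, fold changes went down with transcript length (Spearman's rho −0.48), a description only, as genes of the same libraries are not independent. The members with the shortest canonical transcripts are HRAS (1070 nucleotides), MAP2K2 (1727), MAPK3 (1787) and MAP2K1 (2547), and the longer ones are NRAS (4326), RASA1 (4746) and BRAF (6459). After removal of the dependence on length and GC content, RASA1 was at −1.19, MAPK3 at −0.76 and NRAS at −0.30, each still called lower by limma, while BRAF was not called. In that setting MAP2K1 was called higher at 0.38 and MAP2K2 lower at −0.30, and HRAS was at −0.25 (limma adjusted p = 0.0586). The part of transcript length in the falls of the pathway genes was not tested beyond this setting.

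**Figure D5:**
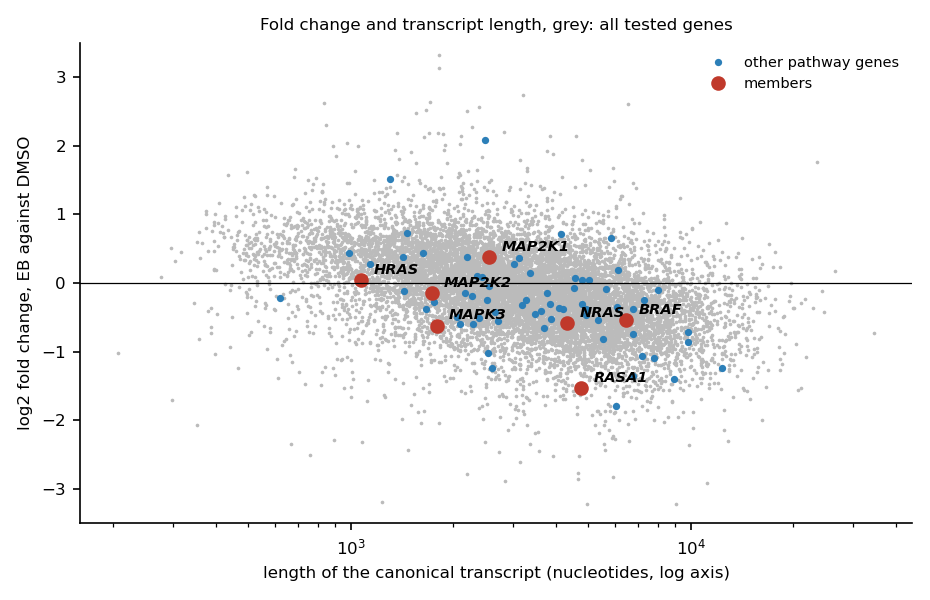
Log2 fold change of EB against DMSO against the length of the canonical transcript on a log axis, with all tested genes in grey, the other pathway genes in blue and the members in red. RASA1 (4746 nucleotides) and MAPK3 (1787 nucleotides) lie below 0 at −1.53 and −0.62, and HRAS, the shortest, lies at 0.042.

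The genes whose pattern over the 8 libraries was most like that of each member were found by the root mean square difference of log2(TPM + 1) after the mean of each gene was taken off. For RASA1 these were KIAA1217 (0.084) and NPAS2 (0.089), with 4 genes within 0.1. NRAS was closest to RBM39 and CAT and had 140 genes within 0.1, BRAF to ZNF827 and OSBPL1A with 111, and MAPK3 to CNNM1 and PIANP with 20. HRAS was closest to LGALS1 and MAPK12 with 46 genes, MAP2K1 to E2F2 and PET117 with 101, and MAP2K2 to SPPL2B and FKBP10 with 130. RASA1 had the fewest genes within 0.1 of the 7 members. The measure includes the difference between EB and DMSO, and KIAA1217 and NPAS2 had log2 fold changes of −1.50 and −1.47. Only 1.46% of the genes tested had a log2 fold change at or below that of RASA1. Its count is thus largely set by its fold change and is no separate result.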

How the data were processed

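The authors deposited TPM (length-corrected transcript abundances) for 20263 genes under human Ensembl identifiers, computed within each of the 8 PANC-1 libraries. The paper's methods give CLC Genomics Workbench 11.0.1 for trimming, mapping and normalization, list HISAT2 2.1.0 and StringTie 1.3.3b as further tools, and name both GrCM38 and hg38. The columns headed C were read as DMSO and those headed H as EB. TPM keep no read counts, so the depth and its counting error are unknown. Symbols, positions and canonical transcript lengths came from GENCODE release 44 on hg38 (20148 identifiers matched, 115 did not), which can differ from the annotation that made the values.

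Only genes that reached 1 TPM in 4 or more libraries entered limma 3.58.1 (R 4.3.3, eBayes without trend or block) on a log2 scale with a pseudocount of 1, which understates changes of low genes. P-values were adjusted by Benjamini-Hochberg over all 11725 genes. Single genes and ratios were tested by an exact two-sided permutation test. The methods call the 4 libraries of a group biological replicates, though they also speak of triplicates sent for sequencing. Python 3.11.15, numpy 2.4.6, pandas 2.3.3, scipy 1.17.1 and matplotlib 3.10.9 were used.

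The members and lists were chosen with earlier results of these data known. Named are all members, the 2 largest rises and falls called in each list, the genes that form a ratio and the 2 nearest genes by pattern. GRB2, RASA2, RASA3, RASGRP2 and SPRY4 fall outside this rule and were named with their values seen. The alternatives changed the pseudocount (0.1), the filter (none, or 5 TPM), the scaling (median-ratio, quantile, or mitochondrial genes removed), the length and GC dependence (removed) and the prior (intensity trend), or used a replicate block, 7 of 8 libraries or the study's thresholds. The fitting steps were tested on simulated data. Some pathway genes, and 2 of the ratios, are not reported here.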

Additional observations from a re-analysis of the deposited data

Results flagged for a closer look

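Samples that stood apart in a group of 4 were sought in 60 groups of values (members, named pathway genes and ratios), where chance flags about 1 in 20, and 6 were found. The value given is the gap to the nearest library as a share of the group's range, with 0.829 as the limit. Gap and range were taken on the log2 scale with 1 TPM added, while the levels below are plain TPM. DMSO replicate 4 was the lowest library for MAP2K1 (0.868, at 9.75 TPM), MAP2K2 (0.846, at 510.7 TPM), ARAF (0.849, at 89.5 TPM) and SPRY2 (0.877, at 85.8 TPM). EB replicate 4 was the lowest EB library for MAP2K2 (0.881, at 616.1 TPM). EB replicate 3 was the lowest EB library for SOS2 (0.877, at 4.44 TPM). DMSO replicate 4 and EB replicate 4 also had the largest mitochondrial shares of their groups, 39.0% and 20.3%, and the part of that share in these values was not tested.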

How the results depend on the processing

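The falls of RASA1, MAPK3 and NRAS kept their direction and limma call under each alternative other than the study's thresholds, and that of BRAF under each but removal of the length and GC trend (−0.085). The study's thresholds left 1 member, 1 lower and 2 higher pathway genes, and 181 lower and 63 higher genes in all. The paper's own fit gave more upregulated than downregulated genes at its thresholds, so its counts were not reproduced. The reason was not tested. Median-ratio scaling called 3039 genes higher (49.7% of calls against 37.7%), quantile normalization 2792 (50.3%) and trend removal 2855 (52.7%), and removal of mitochondrial genes 4954 lower (22.7% of calls higher). The median of all genes was then −0.0052, 0.017, 0.016 and −0.28. With each of the first 3, 1 member was higher, namely MAP2K1 (0.48, 0.56 and 0.38). MAP2K2 was called lower with quantile normalization (−0.42), mitochondrial genes removed (−0.34) and trend removal (−0.30). HRAS turned to −0.072, −0.14 and −0.25 in these settings. Pathway genes called higher were 13 with median-ratio scaling, 14 with trend removal and 4 without mitochondrial genes, which called 37 lower. Trend removal gave log2 ratio differences of −0.68 for MAP2K2 to MAP2K1 and −0.52 for RASA1 to NF1, and 0.050 for HRAS to NRAS. The first 2 had an exact permutation adjusted p of 0.0476, against 0.0714 in the main setting. Their unadjusted exact permutation p was 0.0286 in both settings, the smallest the test can give. The adjusted value moved only with the p-values of other ratios, so it adds no evidence for these 2.

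With each library left out, the log2 fold change was −1.66 to −1.39 for RASA1, −0.68 to −0.56 for MAPK3, −0.65 to −0.52 for NRAS, −0.61 to −0.47 for BRAF, 0.25 to 0.46 for MAP2K1, −0.36 to −0.054 for MAP2K2 and −0.15 to 0.14 for HRAS. Members lower were 4 to 5, pathway genes lower 10 to 31 and higher 4 to 9, and all genes lower 1950 (without DMSO replicate 3) to 4218 and higher 1240 to 1824. Same-numbered libraries did not all deviate together (r = 0.18, 0.046, −0.088 and 0.28 across genes), and not every library correlated best with its own number. The mitochondrial share was lowest in replicate 1 and highest in replicate 4 of both groups. Whether same-numbered libraries were handled together cannot be told from these values. The replicate block called 1 member higher, MAP2K1 (0.37, limma adjusted p = 0.0285), and 2231 genes higher and 3525 lower. Among the values of 20 named pathway genes under alternatives, 288 kept direction and call and 41 lost the call, 13 for FNTB, 8 for MKNK1, 5 each for GOLGA7 and RRAS, 4 for SPRY2, 3 for LAMTOR3, 2 for SPRY1 and 1 for SOS2. The 288 include 12 each for GAB1 and RPS6KA2, from which no support is drawn. Settings in which a gene was not tested are not in these counts. TPM without counts limit what can be said of low genes.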
